A study of Ambystoma mexicanum with 49 samples.

Results

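The genes described here encode the proteins that package DNA in the axolotl embryo, and were chosen by name alone. Of 15631 genes in the deposited tables, 41 carried such names. They comprised 34 histone genes and 7 genes for factors that handle histones or their mRNAs (ASF1A, ASF1B, CHAF1A, CHAF1B, NASP, HIRA and SLBP). Of the histone genes, 24 carried replicative names (the HIST1 to HIST4 series) and 10 carried variant names such as H2AFZ, H3F3A and H1FOO. RNA came from whole single embryos of the axolotl (Ambystoma mexicanum), a salamander, de-jellied and taken at a labelled stage. Poly(A)-selected RNA was read from 49 embryos of 17 stages (1 to 12, 14, 16, 19, 24 and 40), with 3 libraries for each stage except stages 1 and 11, which had 2 each. Total RNA depleted of ribosomal RNA was read in 5 libraries, 3 of stage 2 and 2 of stage 1. No treatment is labelled, and stage is the only difference the labels name between groups.

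Histones form the nucleosome, with H2A, H2B, H3 and H4 in its core and H1 on the linker DNA. In animals, replicative histone genes are transcribed during DNA synthesis, and their mRNAs usually end in a stem-loop bound by SLBP rather than in a poly(A) tail. Variant histones such as H2A.Z and H3.3 are made throughout the cell cycle from ordinary polyadenylated mRNAs. An egg stores histone mRNA and protein for the rapid divisions of cleavage, before its own genome is broadly transcribed in the blastula. Poly(A) selection recovers tailed mRNA, so in poly(A) RNA alone a change in amount and a change in tailing cannot be told apart. In whole embryos, fewer cells of a type and less RNA per cell cannot be told apart either.

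Depth was 12.0 to 44.9 M estimated counts in the poly(A) set, where each replicate is another embryo, and 17.4 to 25.5 M in the total RNA set. BTG4, an egg mRNA used as a stage marker, averaged 2286 ± 221 TPM at stage 1 (SD, n = 2). HBE1, an embryonic globin, averaged 928 ± 131 TPM at stage 40 (SD, n = 3) and 16.3 ± 9.21 TPM at stage 1 (SD, n = 2), above its stage means of 0.066 to 7.45 TPM between them. Of 98 late genes, 83 and 89 were detected in the stage 1 libraries, at 0.354% and 0.624% of their stage 40 level. Levels are in TPM, which the authors scaled for gene length and library total, while log2 changes come from counts scaled between libraries, so the 2 can differ in size and even in sign. A gene is called changed at an adjusted p under 0.05 by edgeR's quasi-likelihood test with Benjamini-Hochberg adjustment over all genes tested, and ± after a log2 change is its SE. Of the 34 histone genes, 26 had enough poly(A) counts to be tested. The other 8 (HIST1H1E, HIST3H2A, H2AFV, HIST1H2BA, HIST1H2BJ, HIST1H3E, H3F3B and HIST4H4) never passed 20 estimated counts in a poly(A) library. Histone members can share reads. Of their poly(A) estimates of 1 or more, 85.5% were not whole numbers. That share was 74.9% for the 7 other members and 66.1% over all genes. Values of near-identical members are therefore uncertain. None of the 34 histone names is a symbol in the RefSeq axolotl table, whereas all 7 of the other names are.

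Some embryos stood apart from others of their stage. Stage 2 replicate 3 had 1420 TPM summed over the 16 histone genes described next as poor in poly(A) RNA, against 597 and 561 TPM in the other stage 2 libraries. In the same library, 742 genes that are not histones but stood below 0.1 of their total RNA level in poly(A) RNA at stage 1 summed to 11495 TPM, against 4419 and 3238 TPM. Stage 10 replicate 1 and stage 11 replicate 3 had 23.5 and 35.9 times as much H2AFZ as H2AFX per TPM, against 7.02, 7.92 and 6.23 times in the other libraries of these stages. Stage 7 replicate 3 had 99.2 TPM of HIST1H2BC, against 12.8 and 18.1 TPM. What set these embryos apart was not tested.

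Comparing poly(A) with total RNA at stage 1 showed which histone genes had low poly(A) estimates beside their total RNA estimates. Of 28 histone genes at 1 TPM or more in total RNA, 16 were lower in poly(A) RNA than in total RNA, against 42.9% of all 11151 genes at that level. Below 0.1 of the total RNA level were 13 of the 28, against 6.77% of all genes. At stage 2 these counts were 15 and 11 of 28, against 38.2% and 2.81% of 11043 genes. The tables were normalized separately. Reads were paired and 101 bases long for poly(A) RNA, and single and 65 bases long for total RNA. Tailing thus cannot be told apart from the assignment of reads among near-identical members, so these ratios are descriptions. HIST2H3C, an H3 gene, had 10.7 and 13.8 TPM in poly(A) RNA, against 1592 and 1749 TPM in total RNA. HIST1H4J, an H4 gene, had 6.04 and 6.94 TPM in poly(A) RNA, against 707 and 680 TPM in total RNA. HIST1H2BK, an H2B gene and the most abundant histone mRNA in total RNA, had 71.0 and 86.9 TPM in poly(A) RNA, against 6343 and 5710 TPM in total RNA. In all 3 genes the poly(A) libraries lay far below the total RNA libraries, with no overlap. Near the dividing ratio of 1, H2AFY2 stood at 0.606 just below and H2AFX at 1.0999 just above. The median ratio over all genes at that level at stage 1 was 1.25. H2AFX and HIST2H2BA, at 1.17, thus counted as higher in poly(A) RNA though below the median gene.

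The names only partly foretold the side on which a gene fell. Of 20 replicative names with a ratio, 14 were lower in poly(A) than in total RNA and 6 were higher (HIST1H1D, HIST2H2AB, HIST1H2BL, HIST2H2BA, HIST2H2BF and HIST3H2BB). Of 8 variant names, 6 were higher in poly(A) RNA and 2, H1FX and H2AFY2, were lower. HIST2H2BF, an H2B gene, had 1531 and 1610 TPM in poly(A) RNA, against 376 and 378 TPM in total RNA. HIST2H2AB, an H2A gene, had 595 and 605 TPM in poly(A) RNA, against 111 and 101 TPM in total RNA. They lay on the same side as H3F3A, which encodes the replacement histone H3.3 and had 921 and 1001 TPM in poly(A) RNA, against 187 and 192 TPM in total RNA. At stage 1, the 16 genes on the lower side summed to 276 ± 45.6 TPM in poly(A) RNA and 15008 ± 1246 TPM in total RNA (SD, n = 2 each). The 12 on the higher side summed to 6084 ± 269 TPM in poly(A) RNA and 2302 ± 6.83 TPM in total RNA.

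**Figure D1:**
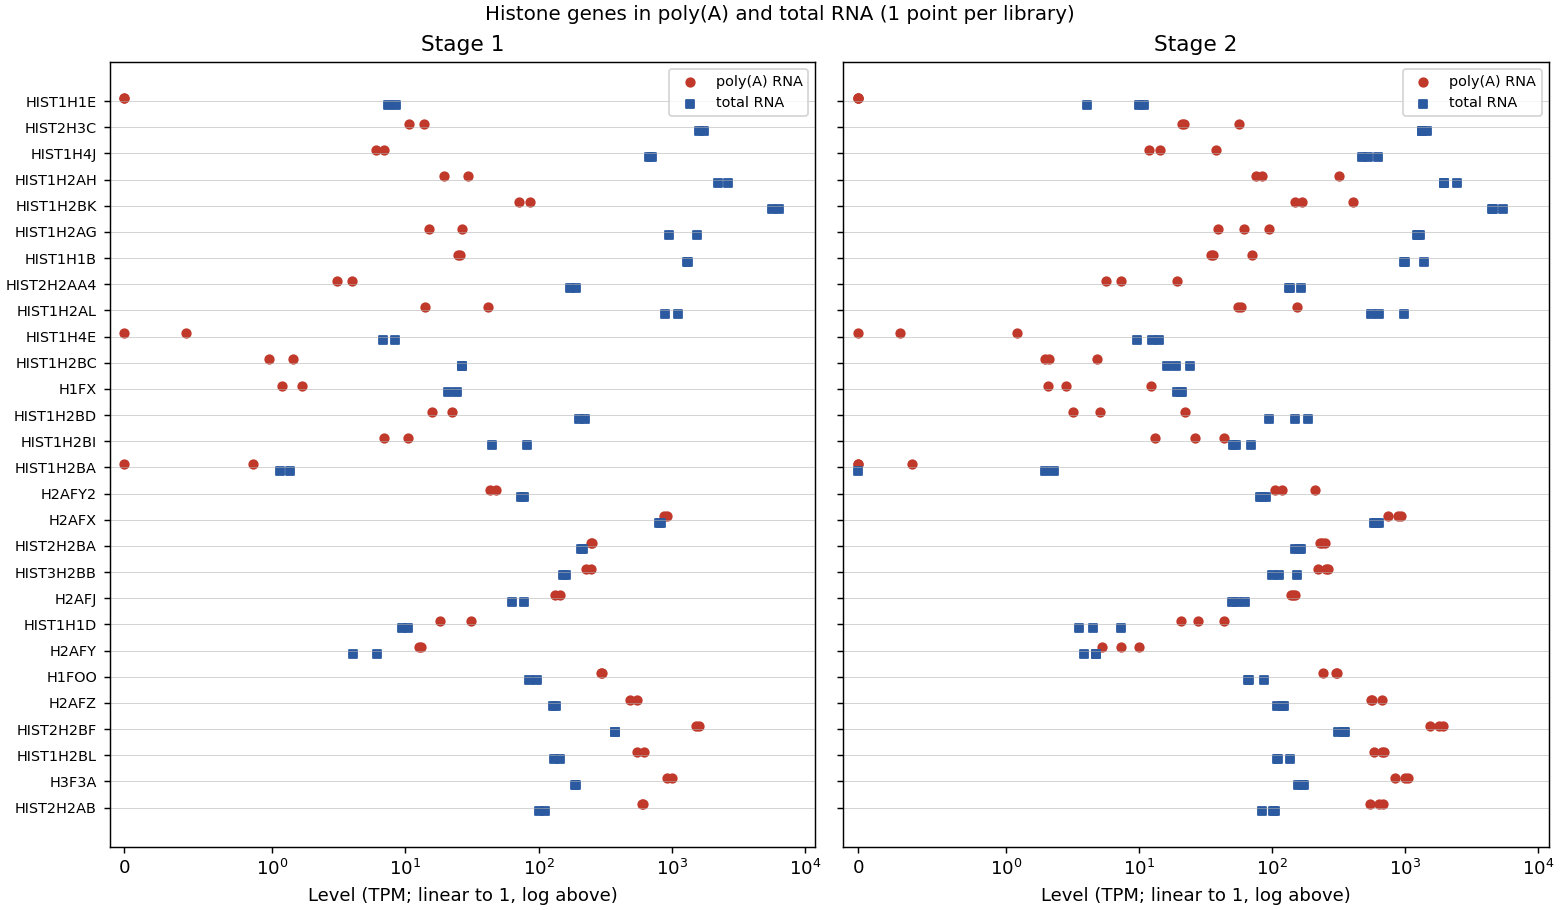
Level in TPM (x axis, linear to 1 and logarithmic above) of each of 28 histone genes in poly(A) RNA (circles) and total RNA (squares), 1 point per library, at stages 1 and 2. Genes are ordered by their ratio at stage 1, with HIST2H3C and HIST1H4J near the top far to the left in poly(A) RNA and H3F3A and HIST2H2AB at the bottom to the right.

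Between stages 1 and 2, 10 histone mRNAs rose in poly(A) RNA, and none was called higher in total RNA. In poly(A) RNA, 10 of 26 histone genes were higher at stage 2 than at stage 1 and 1 was lower, against 21.6% and 11.1% of 14437 genes tested. Their median log2 change was 0.61, beside 0.02 over all genes. All 10 belonged to the 14 tested genes that were lower in poly(A) RNA at stage 1, a grouping that used the stage 1 values. HIST1H2AH, an H2A gene, had 83.7, 75.2 and 318 TPM at stage 2, against 19.3 and 29.5 TPM at stage 1. It rose by 2.65 ± 0.46 on the log2 scale (edgeR quasi-likelihood test, adjusted p = 2.61e-05). Every stage 2 library was above both stage 1 libraries, with replicate 3 highest.

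H2AFY2, a macroH2A gene whose product carries a large extra domain, had 119, 106 and 209 TPM at stage 2, against 43.2 and 48.2 TPM at stage 1. It rose by 1.64 ± 0.25 (edgeR quasi-likelihood test, adjusted p = 2.37e-06). HIST1H2BK had 167, 148 and 408 TPM, against 71.0 and 86.9 TPM, a log2 change of 1.58 ± 0.35 (edgeR adjusted p = 0.000671). The other genes that rose were HIST1H1B, H1FX, HIST1H2AG, HIST1H2AL, HIST2H2AA4, HIST2H3C and HIST1H4J, with log2 changes of 0.87 to 1.91. H2AFY, the other macroH2A gene, was the gene that fell, with 7.52 ± 2.36 TPM at stage 2 and 12.9 ± 0.26 TPM at stage 1 (SD, n = 3 and 2). Without stage 2 replicate 3 the genes called higher numbered 3, and without stage 1 replicate 1 they numbered 4. The call of H2AFY was lost in both cases. The 3 that kept their call under every setting tried were HIST1H2AH, HIST1H2BK and H2AFY2.

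In total RNA, 0 of 27 histone genes were higher at stage 2 than at stage 1 and 2 were lower, against 1.44% and 0.543% of 11419 genes tested by edgeR. The count of 0 was also 0 at an unadjusted p under 0.05 and by the DESeq2 Wald test. The signs ran the other way: 24 of the 27 changes were negative, 16 of them at an unadjusted p under 0.05, and their median was -0.28 beside -0.0056 over all genes. HIST1H2BK had 5423, 4577 and 4476 TPM in total RNA at stage 2, against 6343 and 5710 TPM at stage 1, a log2 change of -0.36 ± 0.09 that was not called (edgeR adjusted p = 0.0746). HIST1H2AH had 2445, 1961 and 1949 TPM, against 2634 and 2239 TPM, with overlapping libraries. The 2 genes that fell were H2AFX (log2 change -0.46 ± 0.08) and HIST2H2BA (-0.47 ± 0.10), whose mRNAs were about as abundant in both kinds of RNA. Neither call was kept when stage 2 replicate 3 was left out of the total RNA set, nor with either stage 1 library left out.

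The difference between the 2 kinds of RNA was tested by one model over both sets. The change in poly(A) RNA exceeded that in total RNA for 4 of 27 histone genes and fell short of it for 0, against 4.95% and 3.51% of 11881 genes tested. By unadjusted p under 0.05 these numbers were 12 and 0, and by the DESeq2 Wald test 11 and 0. The difference was 2.80 ± 0.69 on the log2 scale for HIST1H2AH (edgeR adjusted p = 0.0404) and 1.85 ± 0.46 for HIST1H2BK (edgeR adjusted p = 0.0406). It was 1.99 ± 0.51 for HIST1H4J (edgeR adjusted p = 0.0449) and 1.41 ± 0.29 for H2AFY2 (edgeR adjusted p = 0.0317). The sign was positive in 24 of the 27 genes. The calls rest on few libraries: without poly(A) stage 1 replicate 1, or without any one of the 5 total RNA libraries, none was called, without poly(A) stage 1 replicate 2 there was 1, and without poly(A) stage 2 replicate 3 there were 15.

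From stage 2 to stage 8, the period of cleavage, the poor and the rich genes moved in opposite directions in poly(A) RNA. At stage 8, 10 of 26 histone genes were higher and 10 were lower than at stage 2, against 24.9% and 18.9% of all genes tested, with a median log2 change of 0.37 beside 0.04 over all genes. Of the 14 tested genes lower in poly(A) than total RNA at stage 1, 10 rose and 0 fell, with a median of 1.58. Of the 12 on the other side, 0 rose and 10 fell, with a median of -1.05. Stage 1 libraries, which set the sides, are not in this comparison. The 742 other poly(A)-poor genes also changed, summing to 17990 ± 124 TPM at stage 8 and 6384 ± 4465 TPM at stage 2 (SD, n = 3 each). Their part in the histone result was not tested.

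HIST1H2BC, an H2B gene, had 352, 178 and 139 TPM at stage 8, against 2.11, 1.98 and 4.88 TPM at stage 2. It rose by 5.91 ± 0.54 on the log2 scale (edgeR quasi-likelihood test, adjusted p = 8.07e-10), with no overlap between stages. HIST1H4E, an H4 gene, had 32.4, 11.5 and 11.3 TPM, against 0, 0.28 and 1.21 TPM, and rose by 5.06 ± 1.07 (edgeR adjusted p = 0.000246). HIST1H4E was near the limit of detection at stage 2, and every stage 8 library exceeded every stage 2 library for both genes. HIST1H4J, the more abundant H4 gene, had 168, 114 and 86.8 TPM, against 14.3, 12.0 and 37.9 TPM, a rise of 2.20 ± 0.38 (edgeR adjusted p = 1.87e-05). HIST2H3C had 199, 136 and 99.7 TPM, against 21.9, 21.1 and 56.6 TPM, a rise of 1.80 ± 0.36 (edgeR adjusted p = 0.000127). HIST2H2AA4, HIST1H1B, HIST1H2AL, HIST1H2BI, HIST1H2BK and H1FX made up the rest, with log2 changes of 0.73 to 2.16. In stage 8, replicate 1 was the highest library for each of the 4 genes given by library here.

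The genes that fell by stage 8 included the most abundant histone mRNAs of the early poly(A) libraries. HIST2H2BF had 886, 986 and 929 TPM at stage 8, against 1920, 1792 and 1526 TPM at stage 2, and fell by 1.28 on the log2 scale with an SE of 0.23 (edgeR adjusted p = 2.73e-05). H2AFX, the variant that is phosphorylated at DNA breaks and is abundant in vertebrate eggs such as those of Xenopus, had 476, 511 and 509 TPM, against 877, 927 and 740 TPM. It changed by -1.14 ± 0.29 (edgeR adjusted p = 0.00155). H1FOO, the oocyte linker histone, had 177, 174 and 176 TPM, against 302, 310 and 240 TPM, a change of -1.06 ± 0.18 (edgeR adjusted p = 1.01e-05). In each of these 3 genes all stage 8 libraries were below all stage 2 libraries. HIST2H2AB, HIST1H2BL, HIST2H2BA, HIST3H2BB, H2AFZ, H3F3A and H2AFY also fell, by -0.60 to -1.34. Of the histone genes called at stage 8 compared with stage 2, 7 higher and 8 lower kept their call under every setting. Calls lost under some setting were HIST1H2BK, HIST1H2BI and HIST1H2AL among the higher genes, and H2AFY and H2AFZ among the lower. The H2AFY call was lost with library size alone, among other settings.

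**Figure D2:**
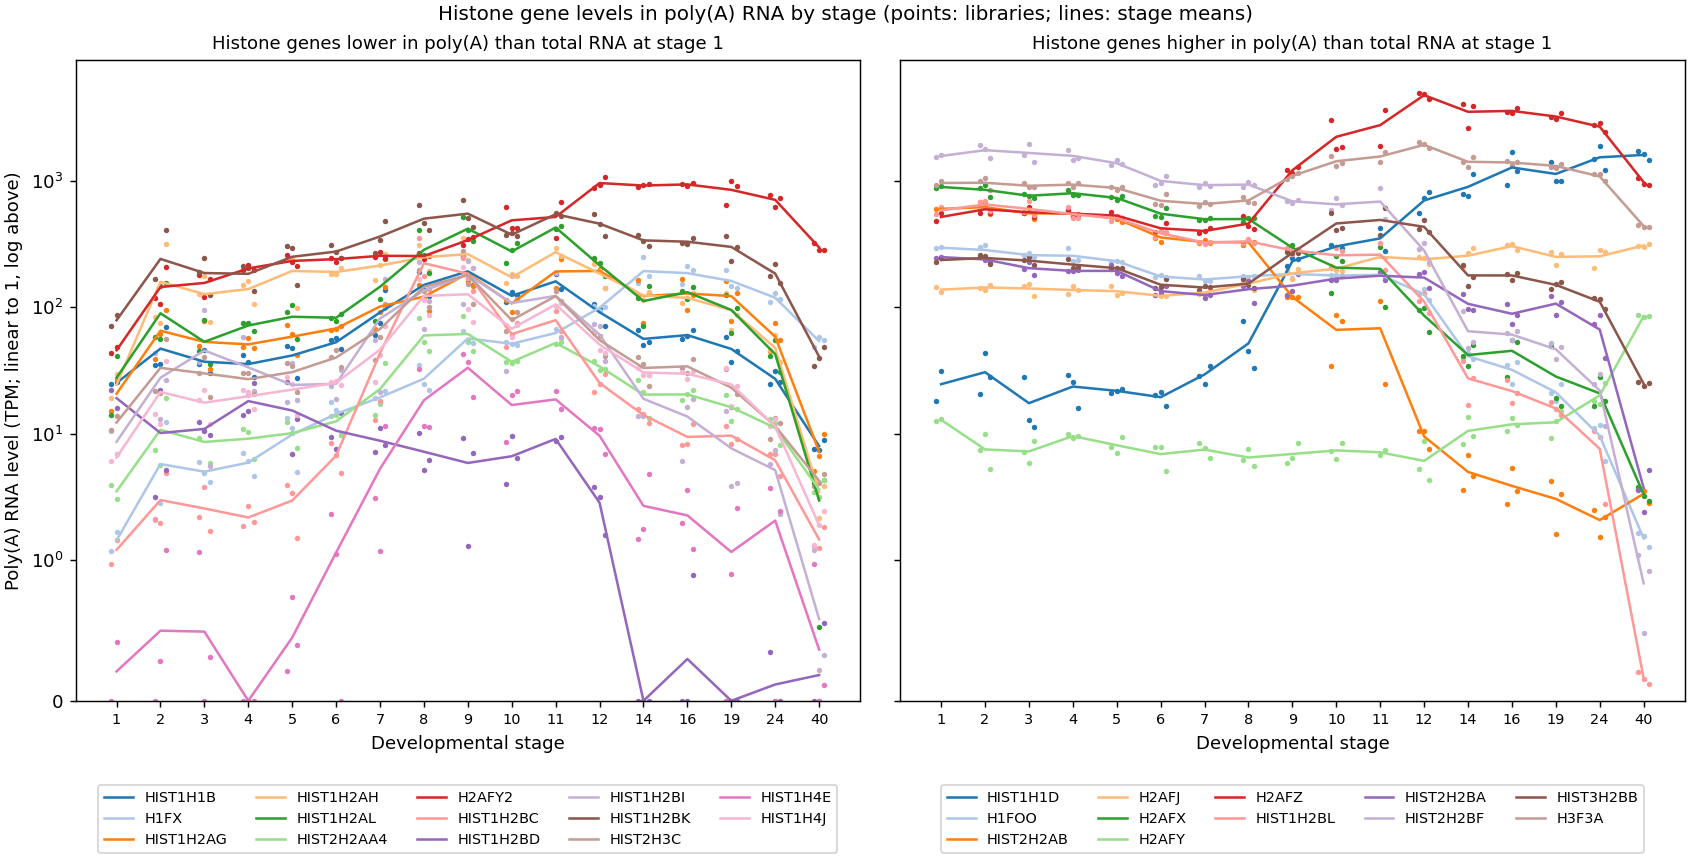
Poly(A) RNA level in TPM (y axis, linear to 1 and logarithmic above) of the 26 tested histone genes at each of 17 stages, with genes lower in poly(A) than total RNA at stage 1 on the left and genes higher on the right. Points are libraries and lines are stage means, so that the climb of HIST1H2BC to 223 TPM at stage 8 (left) and of H2AFZ to 4753 TPM at stage 12 (right) can be followed.

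Between neighbouring stages, no histone gene was called at any step from stage 2 to stage 6, where at most 0.132% of all genes were called in a direction (0.0139% higher at stage 5 compared with stage 4). At stage 7 compared with stage 6, HIST1H2BC was the 1 histone gene called higher and 0 were lower, against 0.0277% and 0.0139% of all genes tested. It had 12.8, 18.1 and 99.2 TPM at stage 7, against 8.47, 6.77 and 4.88 TPM at stage 6 (log2 change 2.64 ± 0.47, edgeR adjusted p = 0.0215), and replicate 3 was by far the highest. At stage 8 compared with stage 7 it was again the 1 gene called, with 352, 178 and 139 TPM at stage 8, against 12.8, 18.1 and 99.2 TPM at stage 7 (log2 change 2.36 ± 0.45, edgeR adjusted p = 0.0304), where 0.09% of all genes were higher and 0.0208% lower. That call was not kept without stage 7 replicate 1 or 2, without stage 8 replicate 1, or in a fit of the 2 stages alone.

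At stage 9 compared with stage 8, 5 of 26 histone genes were higher and 1 was lower, against 4.02% and 11.8% of all genes tested. HIST1H1D had 211, 243 and 240 TPM at stage 9, against 77.6, 44.9 and 32.9 TPM at stage 8, and rose by 2.16 ± 0.28 (edgeR adjusted p = 3.27e-07). H2AFZ had 1213, 1145 and 1274 TPM, against 523, 441 and 413 TPM, and rose by 1.42 ± 0.23 (edgeR adjusted p = 1.34e-05). Both genes were clear of their stage 8 levels in every embryo. H1FX, H3F3A and HIST3H2BB rose by 0.67 to 1.08, and the H1FX call was lost without stage 8 replicate 2, stage 8 replicate 3 or stage 9 replicate 1. HIST2H2AB fell, with 121, 121 and 120 TPM at stage 9, against 310, 338 and 330 TPM at stage 8 (log2 change -1.41 ± 0.27, edgeR adjusted p = 0.000182).

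At stage 10 compared with stage 9, H2AFZ, HIST3H2BB, H2AFY2 and H3F3A rose by 0.54 to 1.06, and 0 histone genes fell, against 1.83% and 1.89% of all genes tested. At stage 11 compared with stage 10, 0 histone genes were called, against 0.0554% of all genes higher and 0 lower. At stage 12 compared with stage 11, 6 rose (HIST1H1D, H2AFY2, H2AFZ, H1FX, H3F3A and H2AFJ, by 0.59 to 1.68) and HIST2H2AB fell, against 16.3% and 21% of all genes tested. With library size alone H2AFJ had -0.12 in that step. At stage 14 compared with stage 12, H1FX, H2AFY, HIST1H1D and H2AFJ rose by 0.37 to 1.23, and HIST1H2BL, HIST2H2BF, H1FOO, HIST3H2BB, H2AFX and HIST1H2BD fell, against 27.4% and 24.9% of all genes tested. No histone gene was called at stage 16 compared with stage 14, where 0.194% of all genes were higher and 0.249% lower. At stage 19 compared with stage 16, H1FOO was the 1 gene that fell and 0 rose, against 1.86% and 1.25% of all genes.

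Of the 14 tested genes poor in poly(A) RNA at stage 1, 7 had their highest stage mean in TPM at stage 9 and 1, HIST1H2BC, at stage 8. The others were highest at stages 11 (HIST1H2AH and HIST1H2AL), 12 (HIST1H2AG and H2AFY2), 14 (H1FX) and 1 (HIST1H2BD). Summed TPM of the poor genes was 276 ± 45.6 at stage 1 (SD, n = 2), 1048 ± 32.7 at stage 6, 2303 ± 682 at stage 8, 2780 ± 599 at stage 9 and 426 ± 16.6 at stage 40 (SD, n = 3 each). At their stage 9 maximum they stayed below the 15008 TPM of the same genes in total RNA at stage 1. The 2 tables were normalized separately. That maximum may depend on scaling, and this sum was not rescaled between libraries. For all histone genes, division by TMM factors, which scale libraries to each other, changed 7504 to 5515 TPM at stage 9. At stage 12 it changed 11280 to 16190 TPM. By scaled counts, 4 of the 14 were called higher and 1 lower at stage 12 than at stage 8, against 31% and 31.5% of all genes.

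Most of the variant histone genes were higher at stage 12, in gastrulation, than at stage 8. Of these, H2AFZ, H3F3A and H1FX had already been called higher at stage 9. In poly(A) RNA, 12 of 26 histone genes were higher at stage 12 than at stage 8 and 5 were lower, against 31% and 31.5% of all genes tested. Of the 8 tested variant names 7 rose, with a median log2 change of 2.01 over the 8. This comparison depends on scaling: with library size alone the median of all genes moved to -0.86 from 0, calls over all genes were 1383 higher and 8193 lower in place of 4471 and 4547, and histone genes were 7 higher and 10 lower. The 7 genes that were higher under every setting were H2AFZ, H3F3A, H2AFJ, H1FX, H2AFY2, HIST1H1D and HIST3H2BB. HIST1H1D and HIST3H2BB carry replicative names, while the variants H1FOO and H2AFY changed sign with library size alone.

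H2AFZ encodes H2A.Z, a variant found at promoters. It had 4935, 4856 and 4467 TPM at stage 12, against 523, 441 and 413 TPM at stage 8, and rose by 4.34 ± 0.26 on the log2 scale (edgeR quasi-likelihood test, adjusted p = 6.67e-17). H3F3A had 2016, 1943 and 1812 TPM, against 746, 682 and 671 TPM, and rose by 2.42 ± 0.15 (edgeR adjusted p = 1.89e-16). Both made gains several times the spread between embryos. H2AFY2 had 877, 922 and 1080 TPM, against 268, 240 and 255 TPM, and rose by 2.88 ± 0.22 (edgeR adjusted p = 3.17e-14). HIST3H2BB, an H2B gene, had 412, 491 and 394 TPM, against 168, 151 and 143 TPM, and rose by 2.45 ± 0.20 (edgeR adjusted p = 1.66e-13). HIST2H2BA, HIST1H2AG, HIST1H2BK, H1FOO and H2AFY were also called higher, by 0.49 to 1.65. With library size alone the first 2 of these lost the call and the other 3 changed sign, to -0.15 for HIST1H2BK, -0.48 for H1FOO and -0.10 for H2AFY. In TPM, H1FOO was lower at stage 12, with 126, 140 and 114 TPM, against 177, 174 and 176 TPM at stage 8.

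Among histone genes HIST2H2AB had the lowest log2 change at stage 12 compared with stage 8, with 10.5, 10.5 and 7.60 TPM at stage 12, against 310, 338 and 330 TPM at stage 8. Its log2 change was -4.12 ± 0.31 (edgeR adjusted p = 2.1e-14). H2AFX had 94.6, 99.0 and 64.2 TPM, against 476, 511 and 509 TPM, a change of -1.57 ± 0.29 (edgeR adjusted p = 1.23e-05). HIST1H2BC had 21.2, 24.6 and 29.7 TPM, against 352, 178 and 139 TPM, a change of -2.19 ± 0.45 (edgeR adjusted p = 5.51e-05). Libraries of the 2 stages did not overlap for any of these 3. HIST2H2BF and HIST1H2BL, both H2B genes, fell by 0.77 and 0.62, and the second call was lost without stage 12 replicate 3 or stage 8 replicate 2.

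Pairs of histone genes in 2 classes changed order in poly(A) RNA at the late blastula. Among linker histones, H1FOO exceeded HIST1H1D in all 23 libraries of stages 1 to 8, where the ratio of HIST1H1D to H1FOO was 0.046 to 0.44. In all 26 libraries of stages 9 to 40 the order was the reverse, with ratios of 1.09 to 1144. In total RNA at stage 1, however, HIST1H1B was the most abundant linker histone mRNA, at 1318 ± 6.16 TPM (SD, n = 2). H1FOO averaged 91.6 ± 8.93 TPM there and HIST1H1D 9.92 ± 0.65 TPM. Among H2A variants, the ratio of H2AFZ to H2AFX was 0.56 to 1.098 in the libraries of stages 1 to 8, with stage 8 replicate 1 the single library above 1, and 3.71 to 317 in those of stages 9 to 40. TPM allows for gene length, so these are ratios of estimated transcripts within a library.

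**Figure D3:**
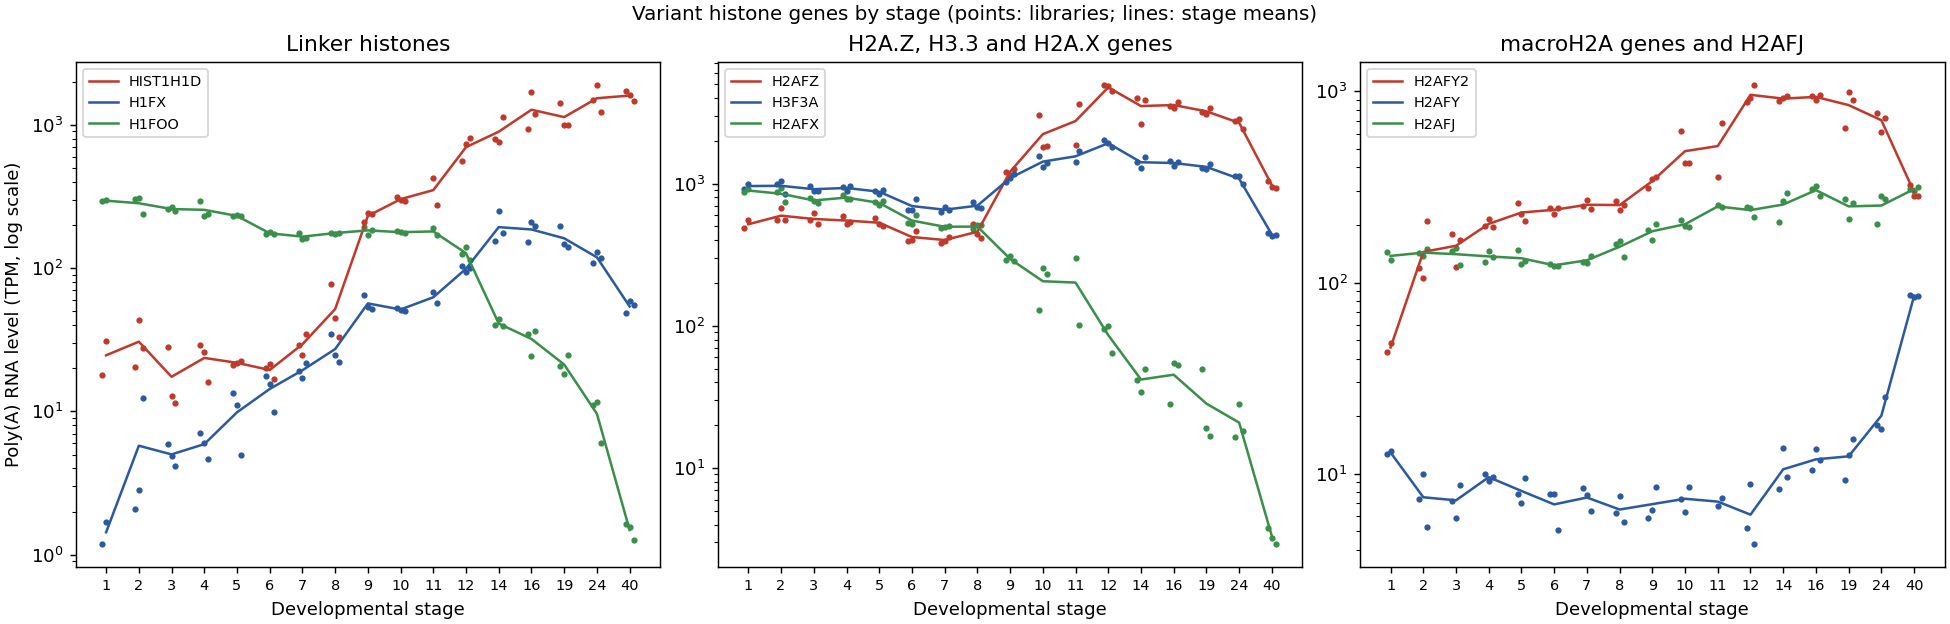
Poly(A) RNA level in TPM (logarithmic y axis) at 17 stages of linker histone genes, of H2AFZ, H3F3A and H2AFX, and of the macroH2A genes with H2AFJ. Points are libraries and lines stage means. HIST1H1D passes H1FOO and H2AFZ passes H2AFX at stage 9, and H2AFY climbs to 85.1 TPM at stage 40.

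After gastrulation most histone genes declined in poly(A) RNA. At stage 19, in the neurula, 16 of 26 were lower than at stage 12 and 3 were higher, against 32.5% and 32.8% of all genes tested, with a median log2 change of -0.84 beside 0.00 over all genes. DESeq2 size factors moved the median of all genes to 0.29 and gave 9 lower and 4 higher, and the count of lower genes was also 9 without stage 19 replicate 2 and 10 without stage 12 replicate 1. H1FOO had 20.9, 18.3 and 24.6 TPM at stage 19, against 126, 140 and 114 TPM at stage 12, and fell by 2.36 with an SE of 0.19 (edgeR quasi-likelihood test, adjusted p = 1.51e-13). HIST1H2BL had 17.8, 15.8 and 14.0 TPM, against 112, 131 and 90.7 TPM, and fell by 2.60 with an SE of 0.27 (edgeR adjusted p = 1.38e-10). HIST2H2BF had 52.5, 39.0 and 48.1 TPM, against 289, 325 and 229 TPM, and fell by 2.38 with an SE of 0.24 (edgeR adjusted p = 1.01e-10). Stage 19 levels of these 3 stored mRNAs were all below those of stage 12. HIST1H2BD was at 0 in all 3 stage 19 libraries, against 3.81, 3.15 and 1.59 TPM at stage 12, at least 6.36-fold lower taking 3 counts for the group as the floor.

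The 3 genes higher at stage 19 were linker or macroH2A histones. HIST1H1D had 1414, 991 and 993 TPM at stage 19, against 556, 730 and 811 TPM at stage 12, and rose by 0.92 ± 0.26 (edgeR adjusted p = 0.00229). H1FX, a linker histone variant, had 196, 147 and 141 TPM, against 103, 93.9 and 100 TPM, and rose by 0.92 ± 0.30 (edgeR adjusted p = 0.00752). H2AFY had 9.31, 12.5 and 15.2 TPM, against 5.22, 8.79 and 4.29 TPM, and rose by 1.24 ± 0.23 (edgeR adjusted p = 1.76e-05). Each stood above its stage 12 range in every library.

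At stage 24, the tailbud, 13 of 26 histone genes were lower than at stage 19 and 0 were higher, against 13.1% and 11% of all genes tested by edgeR. The count of 0 was 1 at an unadjusted p under 0.05 and 1 by the DESeq2 Wald test. H1FOO had 11.2, 11.7 and 6.06 TPM at stage 24, against 20.9, 18.3 and 24.6 TPM at stage 19 (log2 change -1.30 ± 0.19, edgeR adjusted p = 3.25e-06). It was the 1 gene called under every setting. The other 12, among them HIST1H2BK, HIST1H2AL and HIST1H4J, had changes of -0.44 to -1.33. The count was 3 without stage 24 replicate 3, 5 without stage 19 replicate 1 and 8 without stage 24 replicate 1.

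The decline was broadest between stages 24 and 40 among these comparisons. At stage 40, 21 of 26 histone genes were lower than at stage 24 and 1 was higher, against 30.9% and 37.7% of all genes tested, with a median log2 change of -2.35 beside 0.12 over all genes. HIST2H2BF had 1.0997, 0.48 and 0.93 TPM at stage 40, against 24.8, 29.6 and 11.5 TPM at stage 24, and fell by 4.89 with an SE of 0.35 (edgeR quasi-likelihood test, adjusted p = 9.71e-15). HIST2H2BA, an H2B gene, had 3.63, 2.39 and 5.17 TPM, against 73.3, 86.6 and 40.1 TPM, and fell by 4.36 with an SE of 0.28 (edgeR adjusted p = 5.62e-16). HIST1H2AH had 4.26, 2.17 and 3.85 TPM, against 45.9, 60.3 and 37.1 TPM, and fell by 4.04 with an SE of 0.43 (edgeR adjusted p = 2.49e-10). No library of stage 40 reached the range of stage 24 in these 3 genes.

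The replacement variants fell but stayed among the abundant histone mRNAs. H2AFZ had 1048, 950 and 930 TPM at stage 40, against 2758, 2856 and 2414 TPM at stage 24, and fell by 1.70 with an SE of 0.23 (edgeR adjusted p = 5.39e-08). H3F3A had 451, 430 and 435 TPM, against 1124, 1123 and 999 TPM, and fell by 1.55 with an SE of 0.15 (edgeR adjusted p = 1.52e-11). H2AFY was the gene that rose, with 86.5, 83.7 and 85.0 TPM, against 18.0, 17.1 and 25.2 TPM, by 1.86 ± 0.23 (edgeR adjusted p = 7.09e-09). HIST1H1D, with 1715, 1628 and 1461 TPM against 1481, 1896 and 1223 TPM, was not called, with a log2 change of -0.19 ± 0.26. It was then the most abundant histone mRNA in every stage 40 library. H2AFJ, HIST2H2AB and HIST1H2BD were not called either.

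**Figure D4:**
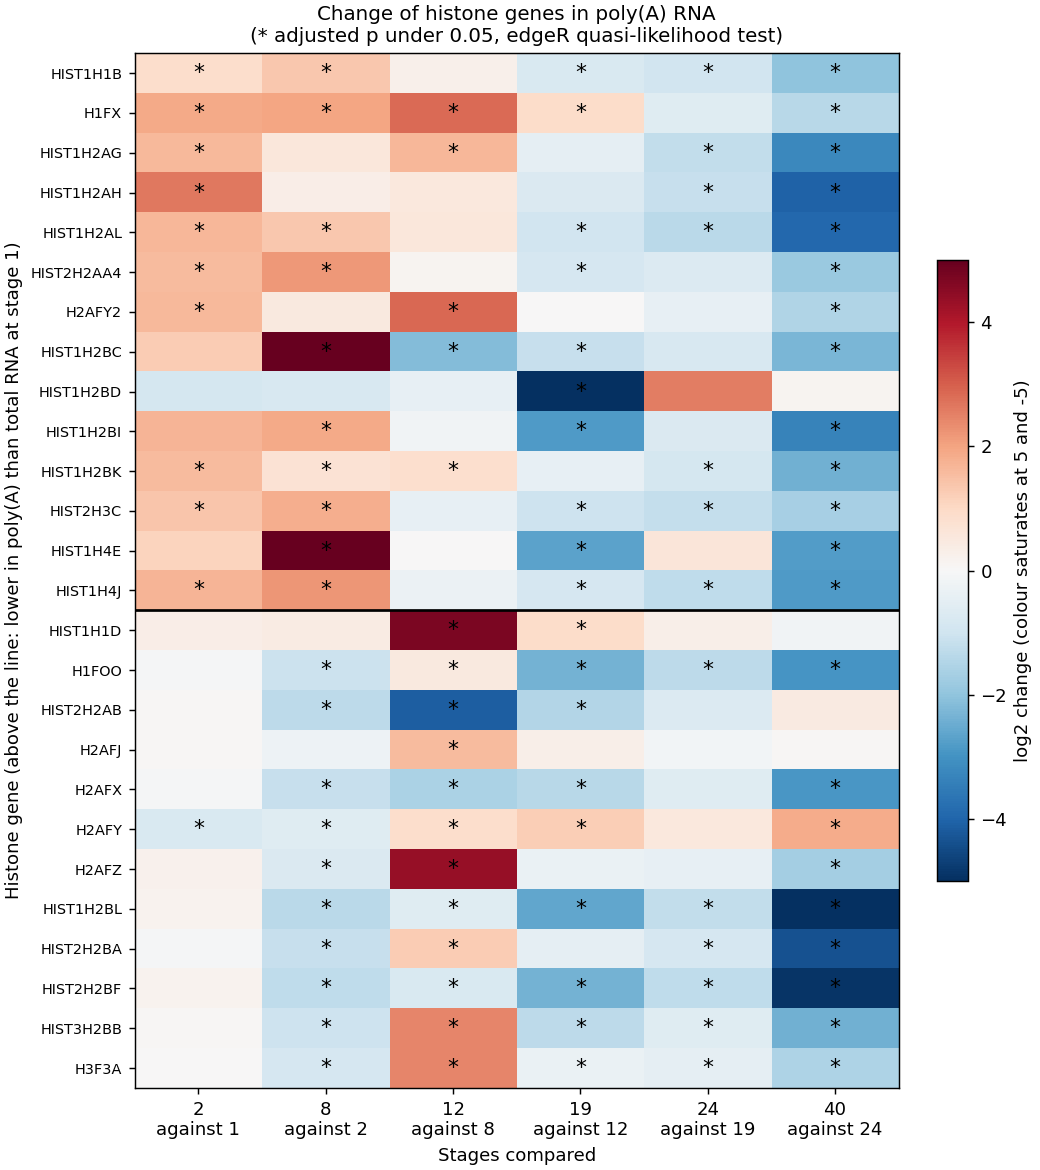
Log2 change of the 26 tested histone genes (rows) in poly(A) RNA over 6 comparisons of a later with an earlier stage (columns), red for higher and blue for lower in the later stage, with an asterisk where the edgeR adjusted p is under 0.05. Rows above the line are genes lower in poly(A) than total RNA at stage 1. In the column of stage 8 against 2 the called genes above the line are red and those below it blue, and the last column is blue for 21 called genes.

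Summed over classes, the makeup of histone mRNA in the poly(A) libraries shifted. All histone genes together had 6360 ± 315 TPM at stage 1 (SD, n = 2), 5064 ± 282 TPM at stage 6, 11280 ± 564 TPM at stage 12 and 3874 ± 197 TPM at stage 40 (SD, n = 3 each). Divided by the TMM factors that scale the libraries to each other, these sums were 5315 ± 199, 3816 ± 304, 16190 ± 1047 and 4062 ± 81.2 TPM. H2AFZ and H3F3A made up 23.2 ± 0.49% of that sum at stage 1, 18.6 ± 0.78% at stage 8, 59.2 ± 0.67% at stage 12 and 36.5 ± 0.48% at stage 40. H2B genes summed to 2748 ± 123 TPM at stage 1, 1543 ± 219 TPM at stage 12 and 72.6 ± 8.62 TPM at stage 40. With the same rescaling H2B genes stood at 2297 ± 75.5, 2214 ± 317 and 76.3 ± 10.9 TPM, in stage order, where the means of stages 1 and 12 differed by less than the SD at stage 12. H1 genes were higher late than early. They summed to 347 ± 14.8 TPM at stage 1, 1017 ± 110 TPM at stage 12 and 1665 ± 126 TPM at stage 40. Rescaled, these sums were 290 ± 8.87, 1456 ± 122 and 1745 ± 90.7 TPM. The highest H1 stage mean was 1689 ± 353 TPM, at stage 24, or 2671 ± 673 TPM rescaled, at stage 16. The highest stage mean of H4 genes was 163 ± 78.0 TPM, at stage 9, whereas they summed to 701 ± 18.2 TPM in total RNA at stage 1. H4 was the class with the lowest mean at every stage in these libraries.

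The genes for histone chaperones, which escort histones to DNA, and for SLBP followed separate courses. Of the 7, 0 were higher and 2 lower at stage 2 than at stage 1, against 21.6% and 11.1% of all genes tested. At stage 8 compared with stage 2, 0 were higher and 4 lower, against 24.9% and 18.9%. At stage 12 compared with stage 8 there were 2 of each, a share near the 31% and 31.5% over all genes, and with library size alone there were 1 higher and 5 lower. At stage 19 compared with stage 12 there were 3 higher and 1 lower, against 32.8% and 32.5%. The 3 higher became 5 with DESeq2 size factors or the DESeq2 Wald test, and 1 with library size alone or without stage 12 replicate 3, stage 19 replicate 2 or stage 19 replicate 3. At stage 40 compared with stage 24, 0 were higher and 4 lower, against 37.7% and 30.9%. The 4 lower at stage 8 became 1 with library size alone and 2 without stage 2 replicate 2 or stage 8 replicate 1, and the 2 lower at stage 2 became 0 without stage 1 replicate 1 or stage 2 replicate 3 and 1 without stage 1 replicate 2. NASP, a carrier of H3 and H4, had 470, 481 and 505 TPM at stage 12, against 240, 228 and 220 TPM at stage 8, and rose by 2.04 ± 0.15 (edgeR quasi-likelihood test, adjusted p = 8.67e-15). All 3 stage 12 libraries were above all 3 of stage 8. At stage 24 compared with stage 19, HIRA was the 1 gene called, higher by 0.41 ± 0.13 (edgeR adjusted p = 0.0169), against 11% of all genes higher and 13.1% lower. The HIRA call was not kept without stage 19 replicate 1 or 3, without stage 24 replicate 3, or in a fit of the 2 stages alone. CHAF1B at stage 12 compared with stage 8 was called higher by 0.26 ± 0.10, while with library size alone it changed by -0.72.

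ASF1A and ASF1B encode related H3 and H4 chaperones and had contrasting courses. ASF1A had 10.2, 4.84 and 5.64 TPM at stage 19, against 0.30, 0 and 0.091 TPM at stage 12, and rose by 5.65 ± 0.76 (edgeR adjusted p = 4.39e-08). It stayed under 1 TPM in every library up to stage 12 and averaged 15.1 ± 0.93 TPM at stage 40. ASF1B had 166, 174 and 146 TPM at stage 12, against 468, 487 and 494 TPM at stage 8, and fell by 0.61 with an SE of 0.15 (edgeR adjusted p = 0.000468). ASF1B was the more abundant of the pair at stage 40, at 188 ± 9.67 TPM.

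CHAF1A and CHAF1B encode subunits of CAF-1, which places new H3 and H4 behind the replication fork. CHAF1A had 62.8, 94.1 and 89.6 TPM at stage 19, against 177, 199 and 199 TPM at stage 12, and fell by 1.00 with an SE of 0.13 (edgeR adjusted p = 1.68e-08). At that step CHAF1B was instead called higher. The CHAF1B call was not kept with library size alone, or without stage 12 replicate 3, stage 19 replicate 2 or stage 19 replicate 3. CHAF1B had 49.8, 43.1 and 42.3 TPM at stage 40, against 75.4, 78.5 and 99.0 TPM at stage 24, and fell by 1.13 with an SE of 0.10 (edgeR adjusted p = 6.21e-12). SLBP, which binds the histone stem-loop, had 54.2, 45.4 and 44.2 TPM at stage 40, against 122, 117 and 152 TPM at stage 24, and fell by 1.68 with an SE of 0.12 (edgeR adjusted p = 2.06e-14). All 3 genes had no overlap between the stages given by library here. HIRA, which deposits H3.3, had 64.0, 83.0 and 56.4 TPM at stage 2, against 95.4 and 95.8 TPM at stage 1, a change of -0.48 ± 0.14 (edgeR adjusted p = 0.00735) that was not called without stage 2 replicate 3 or stage 1 replicate 1.

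**Figure D5:**
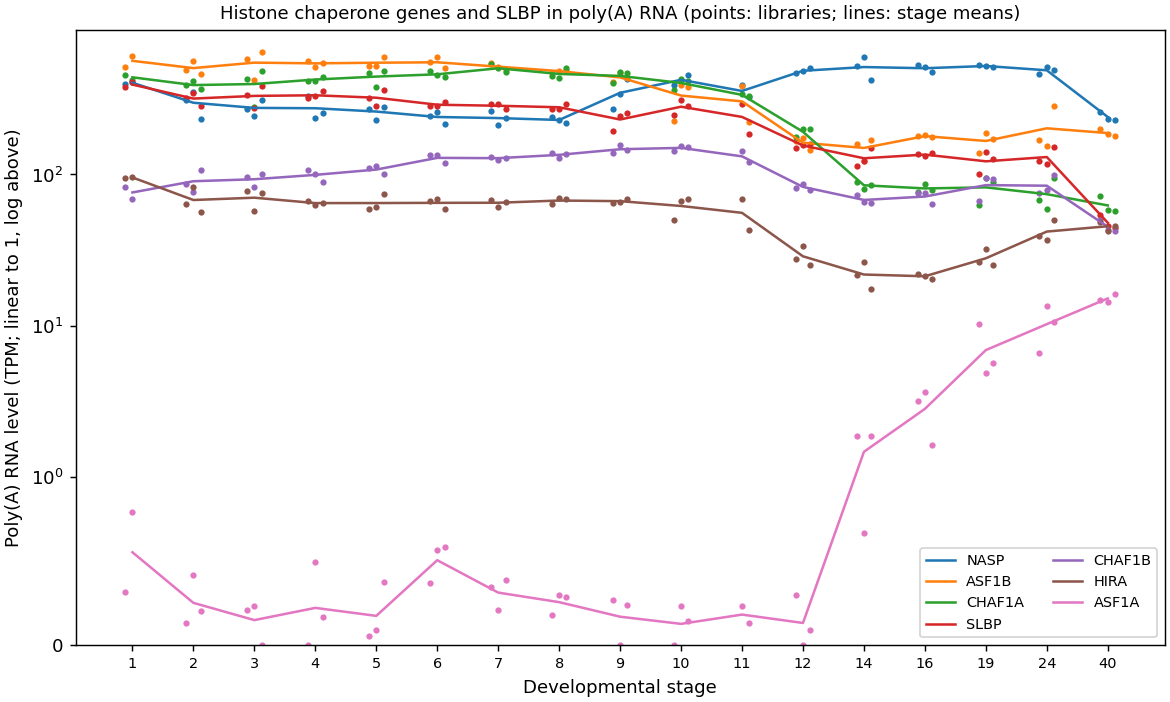
Poly(A) RNA level in TPM (y axis, linear to 1 and logarithmic above) of the 6 histone chaperone genes and SLBP at 17 stages. Points are libraries and lines stage means. ASF1A climbs after stage 12 from under 1 TPM and averages 15.1 TPM at stage 40. In TPM, ASF1B and CHAF1A drop at stage 12 and NASP climbs from stage 9. By scaled counts the CHAF1A call at stage 12 compared with stage 8 was not kept with DESeq2 size factors (log2 change -0.26). It was also lost by the DESeq2 Wald test, and without stage 8 replicate 3, stage 12 replicate 1 or stage 12 replicate 2.

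Genes that transcribe histone genes or process their mRNA, a list of 16 of which 14 were tested, moved both ways in most comparisons. At stage 2 compared with stage 1, 5 were higher and 2 lower, against 21.6% and 11.1% of all genes tested, with a median log2 change of 0.20 beside 0.02 over all genes. At stage 8 compared with stage 2 there were 4 and 4, against 24.9% and 18.9%, with medians of 0.05 and 0.04. At stage 12 compared with stage 8 there were 8 and 5, against 31% and 31.5%, and at stage 19 compared with stage 12 also 8 and 5, against 32.8% and 32.5%, with list medians of 0.49 and 0.35 beside 0.00 over all genes in both. At stage 24 compared with stage 19 there were 0 and 3, against 11% and 13.1%, with medians of -0.10 and -0.02. At stage 40 compared with stage 24 there were 1 and 10, against 37.7% and 30.9%, with medians of -0.66 and 0.12. LSM11, a component of the U7 particle that cuts histone mRNA, averaged 85.7 ± 10.9 TPM at stage 8 and 32.7 ± 17.8 TPM at stage 2 and rose by 1.07 ± 0.23 (edgeR adjusted p = 0.000262). CPSF1, a cleavage factor subunit, averaged 62.0 ± 7.63 TPM at stage 8 and 19.6 ± 9.01 TPM at stage 2 and rose by 1.33 ± 0.19 (edgeR adjusted p = 1.58e-06). CPSF1 and CASP8AP2, which is needed for histone transcription in human cells, had already risen at stage 2 compared with stage 1, by 1.07 ± 0.23 and 0.76 ± 0.18. HINFP, a transcription factor for human H4 genes, averaged 0.79 ± 0.26 TPM at stage 12 and 52.8 ± 7.28 TPM at stage 8, a change of -5.13 ± 0.36 (edgeR adjusted p = 2.72e-15). At stage 19 it averaged 5.77 ± 1.28 TPM and rose by 3.12 ± 0.35 over stage 12. CSTF2, a cleavage stimulation factor subunit, averaged 271 ± 17.7 TPM at stage 12 and 198 ± 5.66 TPM at stage 8, and rose by 1.42 ± 0.13. It rose again at stage 19, to 515 ± 51.1 TPM, and at stage 40 was lower than at stage 24 by -1.21 ± 0.13. NCBP2, a cap-binding subunit, changed by -0.46 ± 0.10 at stage 24 and -1.21 ± 0.10 at stage 40, and ERI1, an exonuclease that trims histone mRNA, by -0.54 ± 0.13 at stage 24.

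Of 26 tested genes in a list of 31 other chaperones and deposition factors, 4 were higher and 10 lower at stage 2 than at stage 1, against 21.6% and 11.1% of all genes tested, with a median log2 change of -0.34 beside 0.02 over all genes. At stage 8 compared with stage 2 there were 3 higher and 11 lower, against 24.9% and 18.9%, with medians of -0.31 and 0.04. At stage 12 compared with stage 8 there were 13 higher and 9 lower, against 31% and 31.5%, with medians of 0.38 and 0.00. At stage 19 compared with stage 12 there were 9 and 6, shares near the 32.8% and 32.5% over all genes, with medians of 0.14 and 0.00. At stage 24 compared with stage 19 there were 2 and 3, near the 11% and 13.1% over all genes, with medians of -0.20 and -0.02. At stage 40 compared with stage 24 there were 3 higher and 16 lower, against 37.7% and 30.9%, with a median log2 change of -0.80 beside 0.12 over all genes. VPS72, a subunit of the complex that loads H2A.Z, averaged 16.6 ± 9.78 TPM at stage 2 and 3.45 ± 1.25 TPM at stage 1 and rose by 2.24 ± 0.27 (edgeR adjusted p = 4.42e-08). DAXX, an H3.3 chaperone, averaged 400 ± 9.88 TPM at stage 8 and 166 ± 48.4 TPM at stage 2 and rose by 0.92 ± 0.12 (edgeR adjusted p = 5.51e-07). SET, a nucleosome assembly protein, averaged 3232 ± 105 TPM at stage 12 and 200 ± 24.0 TPM at stage 8 and rose by 4.98 ± 0.25 (edgeR adjusted p = 2.35e-18). CENPA, the centromeric H3, averaged 81.0 ± 4.84 TPM at stage 8 and 189 ± 13.7 TPM at stage 2, a change of -1.59 ± 0.17. DNAJC9, a chaperone of H3 and H4, averaged 33.8 ± 1.01 TPM at stage 12 and 607 ± 78.9 TPM at stage 8, a change of -3.20 ± 0.22. At stage 19 compared with stage 12, NAP1L1, an H2A and H2B chaperone, rose by 1.51 ± 0.15 and NPM3, a nucleoplasmin relative, changed by -1.22 ± 0.11. SRCAP, the motor of the H2A.Z loading complex, rose by 0.69 ± 0.18 at stage 24 compared with stage 19, and YEATS4, a subunit of it, changed by -1.51 ± 0.14 at stage 40 compared with stage 24. NPM2, the egg nucleoplasmin that stores H2A and H2B in frog eggs, averaged 6.95 ± 0.97 TPM at stage 40 and 150 ± 41.7 TPM at stage 24, a change of -4.69 ± 0.31 (edgeR adjusted p = 1.35e-15). In total RNA no gene of the first list and 1 of the second was called.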

How the data were processed

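The authors deposited expected counts (estimated counts that need not be whole, with no scaling between libraries) and TPM, scaled by the authors for library total and gene length. The submitters' processing notes name RSEM 1.1.6 and Bowtie 0.12.1, with the reference not given in the sources read. Per the labels' protocols, reads were paired and 101 bases long for poly(A) RNA, and single and 65 bases long for total RNA. Columns outside the labels numbered 0. Total RNA columns give a stage and a number, and which embryos they came from is not given, so p-values for them measure only the spread between these libraries.

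Members were selected by gene name with a fixed pattern. The members, the 2 further gene lists and the tests were chosen with earlier results of these data known. Values by library are given for members called in a comparison or averaging 10 TPM or more at some stage, where results turn on them. From each list, counts are given with members among the 2 smallest adjusted p per comparison.

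Counts were rounded to whole numbers. In edgeR 4.0.16 (R 4.3.3) low counts were removed by filterByExpr with stage as the grouping, libraries were scaled by TMM, and counts were fitted with stage as a factor over all 49 poly(A) libraries, and 14437 of 15631 genes were tested. The 5 total RNA libraries were fitted alone (11419 genes), and a model of 4 groups over both kinds of RNA (11881 genes) tested the difference between their changes. The quasi-likelihood F test was adjusted by Benjamini-Hochberg over all genes tested, with a threshold of 0.05, and SE is the log2 change over the square root of F. The script was tested on simulated data. Depth was 12.0 to 44.9 M estimated counts for poly(A) and 17.4 to 25.5 M for total RNA. Among 51 replicate pairs, chi-square divided by its degrees of freedom was at least 5.12, above sampling noise. A set of 98 genes abundant at stage 40 and near 0 from stages 3 to 8 stood at 0.354% and 0.624% of their stage 40 level in the stage 1 libraries. Alternatives were DESeq2 1.42.0 size factors, library size alone, the DESeq2 Wald test, no filter, only the 2 stages compared, a block for the replicate number, and leaving out single libraries.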

Additional observations from a re-analysis of the deposited data

Results flagged for a closer look

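Several genes differed between poly(A) and total RNA in their change at stage 2 relative to stage 1, by a test of the difference itself. HIST1H2AH changed by 2.80 more on the log2 scale in poly(A) than in total RNA, HIST1H4J by 1.99 more, HIST1H2BK by 1.85 more and H2AFY2 by 1.41 more (edgeR quasi-likelihood test, adjusted p from 0.0317 to 0.0449). For each of the 4, all 3 stage 2 poly(A) libraries were above both stage 1 poly(A) libraries. Stage 2 replicate 3, the highest poly(A) library for all 4, also had the highest sum over the 742 other poly(A)-poor genes. That sum was 11495 TPM, against 4419 and 3238 TPM in the other stage 2 libraries. All 4 genes kept their call without that library. None of the 4 was called without poly(A) stage 1 replicate 1, or without any single total RNA library. The part of the 742 genes in the result was not tested.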

How the results depend on the processing

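Of 135 member results called, 76 kept their call under every setting run, and 54 results not called were called under some setting. These cover the 6 main poly(A) comparisons, total RNA, poly(A) minus total RNA, and stages 8 against 7 and 9 against 8. Calls at the remaining neighbouring steps were not counted. Library size alone lost 19, fits of only the 2 stages 19, DESeq2 size factors 12, the DESeq2 Wald test 9, the replicate block 3, no filter 1, and 52 were lost without some library. With library size alone the change at stage 12 against 8 reversed for HIST1H2BK (-0.15), HIST2H2AA4 (-0.83), CHAF1B (-0.72), SLBP (-0.86), H1FOO (-0.48), HIST1H1B (-0.73) and H2AFY (-0.10), and histone genes were 7 higher and 10 lower. It gave 3 higher at stage 40 against 24, 1 higher at stage 24 against 19 and 0 lower in total RNA. DESeq2 size factors gave 9 lower at stage 19 against 12, 1 higher at stage 24 against 19 and 8 higher for poly(A) minus total RNA. The DESeq2 Wald test gave 9, 1 and 11 for these, and 6 lower in total RNA. Fits of only the 2 stages gave 4 higher and 0 lower at stage 2 against 1, and no filter gave 7 higher for poly(A) minus total RNA. The replicate numbers gave no sign that they pair the embryos. Correlations of same-numbered libraries, after removing stage means, were -0.111 to 0.0592 in the 6 poly(A) comparisons. With so few libraries per stage, and other stage pairs not examined, this cannot exclude a pairing. The replicate block gave equal numbers of histone genes in the 6 poly(A) comparisons (10 higher at stage 2 against 1, 21 lower at stage 40 against 24). It gave 0 lower in total RNA, 6 higher in place of 4 for poly(A) minus total RNA and 1 chaperone lower in place of 0 at stage 24 against 19. The 3 calls it lost were HIST1H2BK at stage 8 against 2 and HIST2H2BA and H2AFX in total RNA. The cause of these moves was not tested.

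With each library left out in turn, histone genes higher and lower numbered 3 to 10 and 0 to 2 at stage 2 against 1, 7 to 11 and 8 to 10 at stage 8 against 2, 11 to 12 and 4 to 5 at stage 12 against 8, and 3 to 4 and 9 to 17 at stage 19 against 12. They numbered 0 to 1 and 3 to 14 at stage 24 against 19, 1 and 20 to 21 at stage 40 against 24, 0 and 0 to 11 in total RNA, and 0 to 15 and 0 to 1 for poly(A) minus total RNA. Leaving out libraries was not run for neighbouring stages other than 8 against 7 and 9 against 8. Summed TPM of classes divided by TMM factors moved by more than 1 SD in 84 of 102 cases. Low counts at stages 1 and 2 limit HIST1H4E.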

Other observations

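The H2A gene HIST2H2AB and the H2A variant H2AFX both fell in poly(A) RNA between stages 8 and 12, and differed in total RNA at stage 1. HIST2H2AB had 111 and 101 TPM in total RNA at stage 1, and H2AFX had 797 and 828 TPM. H2AFJ, an H2A variant, had stage means of 123 to 308 TPM over the 17 stages. HIST1H2BI varied between embryos, with 36.6, 94.4 and 5.57 TPM at stage 3 and 31.6, 177 and 116 TPM at stage 10, and all its poly(A) estimates were fractional.

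Among members with few counts, HIST3H2A, HIST1H3E and HIST4H4 had their highest stage means at stage 9, at 2.65 ± 2.57, 2.11 ± 2.12 and 3.22 ± 2.84 TPM (SD, n = 3), and HIST1H1E was listed at 0 in all poly(A) libraries of stages 1 and 2 with 7.41 and 8.49 TPM in total RNA at stage 1.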
